A study of Mus musculus with 10 samples.

Results

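The 33 genes described here carry cells through mitosis. They were chosen by name as mitotic cyclins and kinases, spindle checkpoint, kinetochore, spindle and cytokinesis genes. All 33 were among the 25178 genes of the deposited count table, and all 33 were expressed well enough to be tested, among 14674 genes in all. The study asked how blood formation differs between the sexes. It used 5 female and 5 male C57/BL6 mice at steady state, and the labels name no treatment, engineered allele or age. Marrow was flushed from 1 hindlimb of each mouse and depleted of lineage-marked cells on magnetic beads, which enriches for hematopoietic stem and progenitor cells (HSPC), and the RNA of the whole preparation was sequenced with 1 library per mouse.

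In mitosis, cyclin-dependent kinase 1 bound to its B-type cyclins drives chromosome condensation and spindle assembly. The spindle checkpoint holds the anaphase-promoting complex (APC/C, a ubiquitin ligase) inactive until kinetochores have captured microtubules, and destruction of cyclin B and securin then lets the chromosomes separate and the cell divide. Progenitors of the marrow divide often, whereas most long-term stem cells are quiescent, so transcripts of these genes are common in a progenitor preparation. Most of them are made in the G2 and M phases. Their transcription in that window depends on the B-MYB and MuvB complex with FOXM1, which acts through an element called the CHR, usually spelled TTTGAA, and on NF-Y, which binds CCAAT boxes.

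Promoter windows from RefSeq (build GRCm38.p6), running from 250 bases before to 50 bases after a gene's annotated start, were found for 28 of the 33 genes. The 5 without one were Ccna2, Aurkb, Incenp, Tpx2 and Kif20a, and the first listed window was used for Ect2 and Prc1, which have 2. The 6 windows printed here were picked because they belong to genes whose values the results turn on and because they span the range of motif content, with 4 that hold both motifs and 2 that lack TTTGAA. Each is written 5′ to 3′ on the gene's strand in lower case, and capitals mark every TTTGAA and CCAAT on either strand (on the other strand these read TTCAAA and ATTGG). The windows lie at chr7:122159185-122159484 (plus strand) for Plk1, chr9:70421505-70421804 (minus) for Ccnb2, chr10:69352863-69353162 (minus) for Cdk1, chr11:99024140-99024439 (minus) for Top2a, chr11:117848987-117849286 (plus) for Birc5 and chr13:100786437-100786736 (minus) for Ccnb1.
Plk1: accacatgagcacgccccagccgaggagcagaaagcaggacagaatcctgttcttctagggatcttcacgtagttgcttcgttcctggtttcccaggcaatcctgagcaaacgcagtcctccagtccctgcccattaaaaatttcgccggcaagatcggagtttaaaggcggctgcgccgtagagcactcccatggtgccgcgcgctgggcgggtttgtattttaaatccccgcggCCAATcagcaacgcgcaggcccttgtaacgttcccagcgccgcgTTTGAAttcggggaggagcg
Ccnb2: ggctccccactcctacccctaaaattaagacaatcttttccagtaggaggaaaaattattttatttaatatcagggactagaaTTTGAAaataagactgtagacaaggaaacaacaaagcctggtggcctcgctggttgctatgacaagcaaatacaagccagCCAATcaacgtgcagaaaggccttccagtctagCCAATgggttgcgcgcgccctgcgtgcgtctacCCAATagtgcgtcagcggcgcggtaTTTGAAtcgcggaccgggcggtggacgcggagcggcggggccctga
Cdk1: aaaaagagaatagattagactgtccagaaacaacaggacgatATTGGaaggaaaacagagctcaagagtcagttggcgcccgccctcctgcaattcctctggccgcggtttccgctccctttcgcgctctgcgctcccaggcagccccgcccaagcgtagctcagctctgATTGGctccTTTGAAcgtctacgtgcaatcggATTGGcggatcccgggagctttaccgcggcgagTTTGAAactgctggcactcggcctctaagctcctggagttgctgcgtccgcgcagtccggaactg
Top2a: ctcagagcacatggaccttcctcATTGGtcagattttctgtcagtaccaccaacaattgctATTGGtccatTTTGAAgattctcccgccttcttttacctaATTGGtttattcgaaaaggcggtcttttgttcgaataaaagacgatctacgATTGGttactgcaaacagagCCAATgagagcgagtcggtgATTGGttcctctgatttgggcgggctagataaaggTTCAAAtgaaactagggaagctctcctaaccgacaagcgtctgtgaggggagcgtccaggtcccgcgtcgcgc
Birc5: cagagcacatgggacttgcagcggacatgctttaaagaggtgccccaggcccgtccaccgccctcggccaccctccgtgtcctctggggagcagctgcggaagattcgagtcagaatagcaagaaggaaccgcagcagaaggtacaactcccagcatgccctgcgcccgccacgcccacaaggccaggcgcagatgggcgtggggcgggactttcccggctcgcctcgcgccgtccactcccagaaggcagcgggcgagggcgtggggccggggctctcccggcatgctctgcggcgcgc
Ccnb1: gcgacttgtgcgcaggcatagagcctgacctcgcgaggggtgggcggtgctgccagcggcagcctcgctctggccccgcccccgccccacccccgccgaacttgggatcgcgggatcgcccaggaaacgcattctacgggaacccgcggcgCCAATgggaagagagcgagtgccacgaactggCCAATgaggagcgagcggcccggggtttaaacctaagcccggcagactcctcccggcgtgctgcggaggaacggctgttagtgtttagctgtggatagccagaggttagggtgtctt

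Positions are counted from the annotated start, with base 1 as the first base after it and negative numbers before it. In the Plk1 window, CCAAT began at base -14 and TTTGAA at base 31. The Ccnb2 window held TTTGAA at bases -167 and 5 and CCAAT at bases -87, -54 and -21. The Cdk1 window held TTTGAA at bases -71 and -15, beside 3 CCAAT matches on the opposite strand at bases -208, -80 and -48. Top2a had 2 TTTGAA matches, at bases -179 and -23, and 6 CCAAT matches. Ccnb1 held CCAAT at bases -99 and -67 and no TTTGAA, and Birc5 held neither motif.

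Across the 28 windows, TTTGAA was present in 21 (75%), against 12.4% of the 9876 windows of tested genes and 17.9% of all 32851 windows in the table. In 19 of the 28 (67.9%) a match lay within 50 bases of the start, against 3.09% of the windows of tested genes. CCAAT was present in 21 of 28 (75%), against 39.2% of windows of tested genes and 37.4% of all windows. At least 2 CCAAT matches were held by 15 of the 28, against 15.4% of windows of tested genes and 11.7% of all windows. Both motifs stood together in 18 of 28 (64.3%), against 5.29% of windows of tested genes and 6.95% of all windows. The E2F-type words TTTCCCGC and TTTGGCGC, searched on both strands, were in 0 of the 28 windows and in 3.20% of windows of tested genes. A match describes the letters of the window and is not a site of binding. No test was run on these shares.

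The windows of DNA replication genes, whose transcripts peak earlier, in the G1 and S phases, were searched in the same way. Of 33 replication genes, such as Mcm and Pol family members, 27 had a window, with TTTGAA in 4 (14.8%), CCAAT in 17 (63.0%) and an E2F-type word in 9 (33.3%). A list of 70 other mitosis genes stood between them, with TTTGAA in 31 of 59 windows (52.5%) and an E2F-type word in 8 (13.6%).

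Among the 10 libraries, males 1 and 2 stood apart on the first principal component of the 1000 most variable genes (38.4% of the variance), at 35.3 and 36.7, where the other 8 mice lay at 6.04 or below.

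The summed level of the mitosis genes overlapped between female and male marrow. The 33 genes took 0.518% ± 0.0245 of the reads in females, against 0.491% ± 0.0398 in males (SD, n = 5 each). The difference, female minus male, was 0.0267 percentage points, which is more than the female SD and less than the male SD. It was 0.0131 without male 2 and -0.00027 without males 1 and 2. In CPM, a gene's reads scaled to a common library total with TMM factors, their summed level was 5259, 5480, 4937, 4779 and 4795 in females 1 to 5, against 4825, 4937, 5043, 5291 and 5087 in males 1 to 5. The groups overlapped: females 1 and 2 and male 4 were the highest of the 10 mice, and females 4 and 5 the lowest. The mean sum was 5050 ± 308 CPM in females, against 5037 ± 174 CPM in males (SD, n = 5 each). In bulk RNA of this kind, fewer dividing cells and less of each transcript per dividing cell cannot be told apart.

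**Figure D1:**
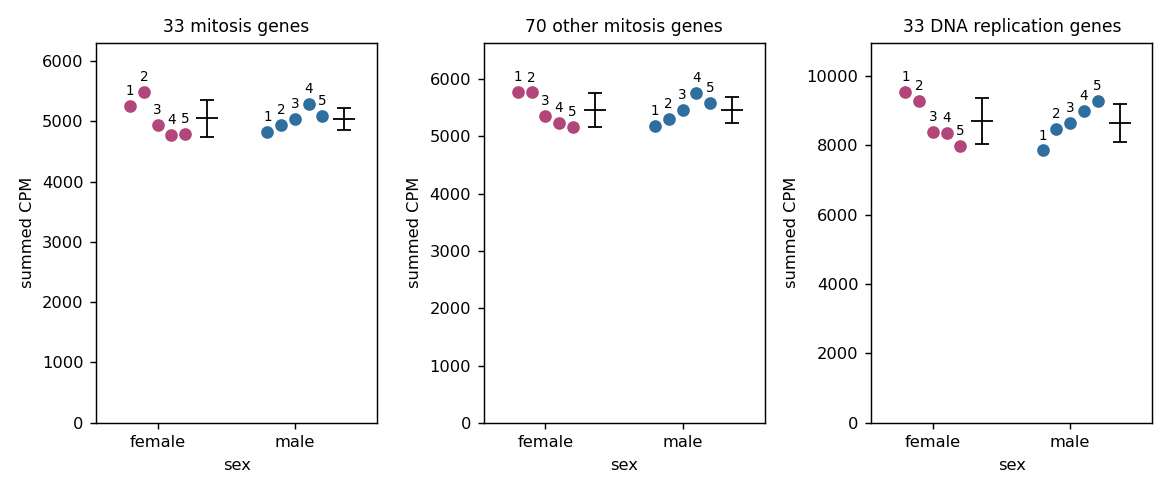
Summed level (CPM, linear axis from 0) of the 33 mitosis genes, 70 other mitosis genes and 33 DNA replication genes in each mouse, females left and males right; points are mice labelled with their library number, and the bar beside each group is the mean with SD over 5 mice. The female and male points overlap in all 3 panels, with means of 5050 and 5037 CPM for the 33 mitosis genes.

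No mitosis gene passed the test for a sex difference. At an adjusted p under 0.05 (edgeR's quasi-likelihood test with Benjamini-Hochberg adjustment over all 14674 genes), 0 of 33 were called, where 8 of all genes tested (0.0545%) were, 3 higher in females (0.0204%) and 5 lower (0.0341%). Values of the sexes did not overlap for 0 of 33 members, against 283 of all genes (1.93%). At an unadjusted p under 0.05 there was 1 member, Birc5, lower in females, against 9.17% of all genes, of which 3.76% were higher and 5.41% lower in females. DESeq2 called 0 of the 33, against 60 of the 17827 genes it tested (0.337%). The log2 fold changes, female over male, ran from -0.31 for Birc5 to 0.25 for Kif20a, with 17 above 0 and 16 below and a median of 0.02, where the median of all genes was -0.01. Without male 2 the median of the members was -0.01, and without males 1 and 2 it was -0.02. Adjusted p-values of the 33 lay between 0.506 and 0.995 (edgeR).

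The interval of each difference shows what size the data allow. The 95% interval lay within 1.5-fold in either direction for 30 of the 33 genes, the exceptions being Birc5, Kif20a and Mki67, where 53.4% of all genes met that bound. It lay within 2-fold for all 33, against 82.9% of all genes. The median width of the intervals was 0.48 on the log2 scale, against 0.71 for all genes. The median biological coefficient of variation was 0.136 against 0.189. Related lists were alike in this, with 0.49 and 0.139 for the 70 other mitosis genes and 0.50 and 0.142 for the 33 DNA replication genes.

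**Figure D2:**
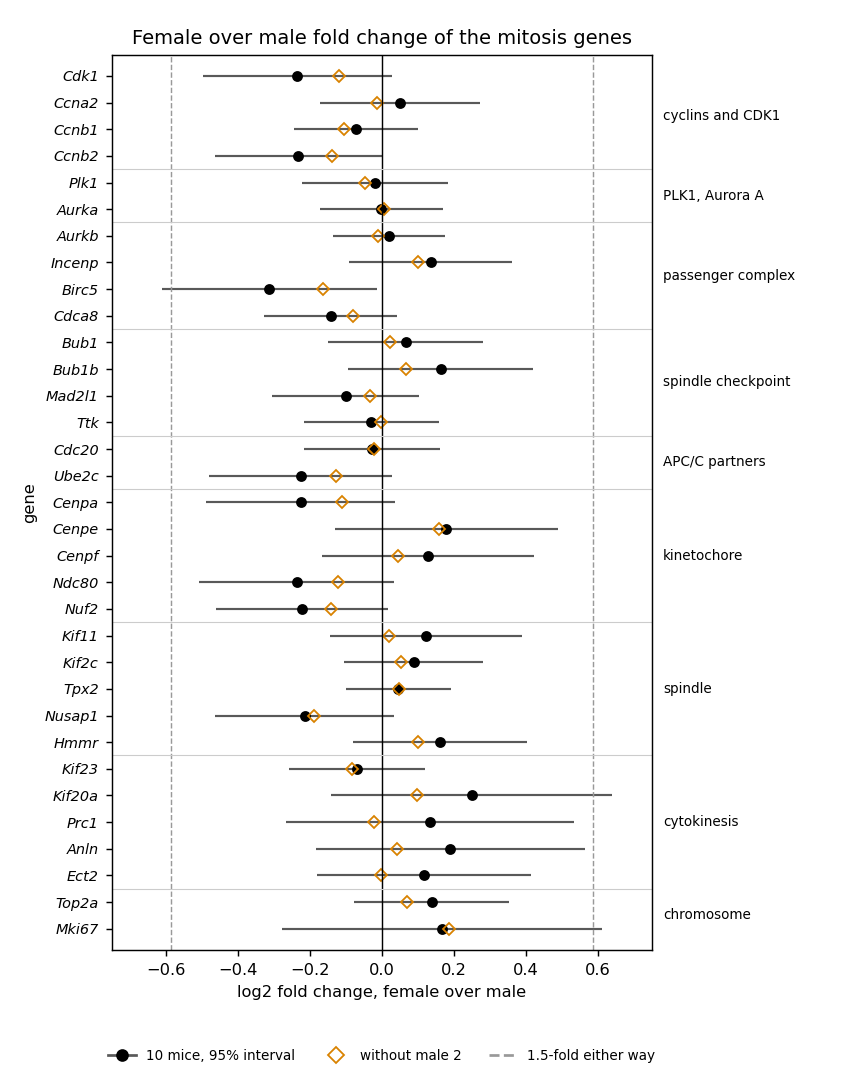
Log2 fold change, female over male, of each of the 33 mitosis genes by role, with its 95% interval (black, 10 mice) and the value without male 2 (open diamonds); dashed lines mark 1.5-fold either way. Of the intervals, 30 of 33 lie inside the dashed lines, and the diamonds run from -0.19 to 0.19.

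The cyclins and their kinase come first. Cdk1 (chr10:69335146-69352938, minus strand, GRCm38), the kinase itself, was at 157, 148, 139, 153 and 127 CPM in females 1 to 5, against 174, 222, 164, 147 and 145 CPM in males 1 to 5. Males 1, 2 and 3 were above every female, male 2 the most, and males 4 and 5 lay within the female range. The log2 fold change was -0.23 (SE 0.12, adjusted p = 0.506, edgeR), and -0.12 without male 2. Ccnb2 (chr9:70407692-70421547, minus), a B-type cyclin found at the Golgi, was at 188, 170, 153, 162 and 149 CPM in females, against 186, 241, 186, 175 and 177 CPM in males. Male 2 was again the highest mouse, female 1 lay among the males, and the log2 fold change was -0.23 (95% interval -0.46 to 0.00, adjusted p = 0.506, edgeR), or -0.14 without male 2. Ccnb1 (chr13:100778650-100786570, minus), the main partner of CDK1 at mitotic entry, averaged 224 ± 15.2 CPM in females, against 235 ± 14.1 CPM in males, with male 2 the lowest male. Ccna2, cyclin A2, which acts in S phase and on the way into mitosis, averaged 302 ± 26.8 CPM in females, against 291 ± 35.1 CPM in males (log2 fold change 0.05, adjusted p = 0.805, edgeR, and -0.014 without male 2), with male 2 the lowest of the 10 mice.

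The balance of the B-type cyclins, as the ratio of Ccnb1 to Ccnb2 in CPM per kilobase of transcript, was 0.841 ± 0.0544 in females, against 0.765 ± 0.132 in males (SD, n = 5 each). Male 2 stood at 0.542, while the other 4 males lay between 0.763 and 0.865, within the female range of 0.773 to 0.921 except at the low end.

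Plk1 (chr7:122159439-122169873, plus), a kinase that matures centrosomes and promotes mitotic entry, was at 191, 185, 185, 153 and 159 CPM in females, against 158, 164, 186, 186 and 191 CPM in males, so that the sexes covered almost the same range. Aurka, Aurora A, which works at spindle poles, averaged 103 ± 6.74 CPM in females, against 103 ± 5.61 CPM in males, with a log2 fold change of -0.0012 (95% interval -0.17 to 0.17). Its adjusted p of 0.995 (edgeR) was the highest of the members.

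The 4 subunits of the chromosomal passenger complex, which corrects faulty kinetochore attachments and later acts in cytokinesis, had log2 fold changes on both sides of 0. Aurkb, the kinase subunit Aurora B, averaged 143 ± 5.45 CPM in females, against 141 ± 7.41 CPM in males (log2 fold change 0.02, and -0.011 without male 2). Incenp, the scaffold that activates it, was at 228, 240, 218, 203 and 223 CPM in females, against 164, 182, 215, 236 and 217 CPM in males, with males 1 and 2 below all females and male 4 above all but female 2 (log2 fold change 0.14, SE 0.10, adjusted p = 0.545, edgeR). Leaving out both of those males, the value was -0.0014.

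Birc5 (chr11:117849251-117855743, plus), survivin, the small subunit that places the complex at centromeres and that is also known as an inhibitor of cell death, was at 128, 130, 109, 122 and 110 CPM in females, against 150, 206, 139, 120 and 127 CPM in males. Males 1, 2 and 3 were above every female, while males 4 and 5 lay within the female range. Its log2 fold change was -0.31 (SE 0.14, 95% interval -0.61 to -0.01, adjusted p = 0.506, edgeR), which is 0.806-fold. Its unadjusted p was 0.0422, and those of the other 32 members were above the 0.05 level. The value was -0.16 without male 2 and -0.11 without males 1 and 2. Cdca8, borealin, the subunit that binds survivin, averaged 147 ± 6.78 CPM in females, against 163 ± 16.7 CPM in males (log2 fold change -0.14, adjusted p = 0.507, edgeR, and -0.08 without male 2). The ratio of Birc5 to Incenp per kilobase was 1.84 ± 0.150 in females, against 2.59 ± 0.883 in males, with male 2 at 3.86 and the other males between 1.74 and 3.13.

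In the spindle checkpoint, Bub1b, the BUBR1 protein that inhibits the APC/C, was at 187, 188, 183, 169 and 185 CPM in females, against 154, 118, 173, 189 and 181 CPM in males. Males 1 and 2 were below every female and male 4 above them all (log2 fold change 0.16, SE 0.12, adjusted p = 0.531, edgeR, and 0.07 without male 2). Bub1, the kinase that recruits checkpoint proteins to kinetochores, averaged 68.6 ± 5.82 CPM in females, against 65.5 ± 7.17 CPM in males. Mad2l1, MAD2, which sequesters CDC20, averaged 131 ± 5.83 CPM in females, against 140 ± 17.8 CPM in males, with males 1 and 2 at 153 and 165 CPM above all other mice. Ttk, the MPS1 kinase at the head of the checkpoint, averaged 38.9 ± 2.76 CPM in females, against 39.7 ± 2.85 CPM in males. None of the 4 had an adjusted p under 0.531 (edgeR).

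The APC/C itself has 2 partners among the members. Cdc20, the activator that the checkpoint restrains, was at 223, 226, 234, 202 and 226 CPM in females, against 189, 230, 237, 233 and 244 CPM in males, a log2 fold change of -0.03 (SE 0.09). Male 1 was the lowest mouse and the other 4 males were above the female median. Ube2c, the ubiquitin-conjugating enzyme that starts chains on cyclin B, was at 213, 196, 178, 171 and 175 CPM in females, against 232, 275, 210, 188 and 187 CPM in males. Males 1 and 2 were above all other mice, and the log2 fold change was -0.22 (SE 0.12, adjusted p = 0.506, edgeR), or -0.13 without male 2.

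Of the 5 kinetochore genes, the 3 with the shorter transcripts had log2 fold changes of -0.22 to -0.24 and the 2 that encode very large proteins had 0.13 (Cenpf) and 0.18 (Cenpe). Without male 2 the values were -0.11 for Cenpa, -0.12 for Ndc80, -0.14 for Nuf2, 0.05 for Cenpf and 0.16 for Cenpe, and without males 1 and 2 they were -0.09, -0.06, -0.07, -0.03 and 0.03. Cenpa, the histone H3 variant that marks centromeres, was at 218, 210, 195, 208 and 180 CPM in females, against 229, 308, 243, 206 and 196 CPM in males. Males 1, 2 and 3 lay above every female. Ndc80 and Nuf2, which form the microtubule-binding arm of the outer kinetochore, averaged 28.7 ± 2.30 and 78 ± 6.51 CPM in females, against 33.8 ± 6.33 and 91.0 ± 13.4 CPM in males. For both genes males 1 and 2 were the highest mice, and the adjusted p was 0.506 (edgeR). Their ratio per kilobase was 0.404 ± 0.0367 in females, against 0.405 ± 0.0199 in males. Cenpe, a kinesin that moves chromosomes to the spindle equator, averaged 49.5 ± 7.97 CPM in females, against 43.7 ± 7.51 CPM in males, and Cenpf, a large coiled-coil protein of the outer kinetochore, averaged 62.0 ± 8.57 CPM in females against 56.7 ± 9.79 CPM in males. The ratio of Cenpa to Cenpf per kilobase was 25.2 ± 4.42 in females, against 33.2 ± 12.5 in males, and 54.0 in male 2.

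No spindle gene passed the test either. Tpx2, which activates Aurora A and nucleates microtubules, had 185, 193, 177, 179 and 182 CPM in females, against 171, 177, 173, 184 and 182 CPM in males. It was one of the steadiest members, with a coefficient of variation of 3.54% in females and 3.15% in males. Kif11, the motor that pushes spindle poles apart, averaged 197 ± 11.8 CPM in females, against 181 ± 32.2 CPM in males, where male 2 was at 127 CPM and the other males at 183 to 211 CPM (log2 fold change 0.12, and 0.02 without male 2). Kif2c, a kinesin that depolymerises microtubules, averaged 67.2 ± 4.61 CPM in females against 63.2 ± 5.56 CPM in males, and Hmmr, a spindle pole protein, averaged 98.2 ± 11.4 CPM in females against 87.8 ± 10.9 CPM in males. Nusap1, which bundles microtubules near chromosomes, was at 119, 104, 91.3, 98.4 and 90.3 CPM in females, against 141, 124, 107, 112 and 99.6 CPM in males, with a log2 fold change of -0.21 (SE 0.11, adjusted p = 0.506, edgeR). Its value without male 2 was -0.19, the most negative of any member in that comparison.

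In cytokinesis, 4 of 5 genes shared 1 low library. Kif20a, a kinesin of the central spindle that carries the passenger complex there, was at 92.8, 101, 100, 89.1 and 84.9 CPM in females, against 74.0, 43.3, 88.4, 97.2 and 90.6 CPM in males. Male 2 was lowest and male 1 second lowest, while males 3, 4 and 5 lay within the female range. Its log2 fold change of 0.25 (SE 0.18, 95% interval -0.14 to 0.64, adjusted p = 0.530, edgeR) was the largest positive one among the members, and it was 0.10 without male 2 and 0.02 without males 1 and 2. Prc1, which crosslinks the antiparallel microtubules of the central spindle, was at 93.2, 95, 79.5, 80.5 and 76.3 CPM in females, against 76.5, 41.5, 87.1, 92.8 and 88.7 CPM in males, and Anln, anillin, a scaffold of the contractile ring, was at 89.5, 89.2, 84.5, 77.2 and 75.2 CPM in females, against 72.4, 41.1, 78.5, 85.6 and 86.4 CPM in males. In both, male 2 was far below the other 9 mice. Ect2, the exchange factor that activates RhoA at the cleavage site, averaged 63.3 ± 2.59 CPM in females, against 58.3 ± 11.9 CPM in males, with male 2 at 38.0 CPM and the other males between 58.8 and 66.9 CPM.

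Relative to the mean of the other 4 males, male 2 had 0.495 of Kif20a, 0.482 of Prc1, 0.509 of Anln and 0.599 of Ect2. Kif23, the kinesin of the centralspindlin complex that recruits ECT2, did not share this, with 0.947 in male 2 and means of 52.4 ± 4.02 CPM in females, against 54.9 ± 3.79 CPM in males. The ratio of Kif23 to Kif20a per kilobase was 0.606 ± 0.0329 in females, against 0.818 ± 0.295 in males, and 1.31 in male 2.

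The last 2 members act on chromosomes. Top2a (chr11:98992943-99024189, minus), the topoisomerase that untangles sister chromatids, was at 585, 622, 598, 594 and 587 CPM in females, against 533, 434, 529, 638 and 578 CPM in males. Males 1, 2, 3 and 5 were below every female and male 4 above every female. The coefficient of variation was 2.49% in females and 13.8% in males, and the log2 fold change 0.14 (SE 0.10, adjusted p = 0.529, edgeR), or 0.07 without male 2 and 0.04 without males 1 and 2. Mki67 (chr7:135689784-135716361, minus), the Ki-67 protein that coats mitotic chromosomes and is used as a marker of cycling cells, was at 433, 607, 366, 302 and 459 CPM in females, against 233, 407, 389, 461 and 438 CPM in males. Female 2 was the highest mouse and male 1 the lowest. It was the most variable member among the females, with a coefficient of variation of 26.5% in females and 23.2% in males, and its log2 fold change was 0.17 (SE 0.20, 95% interval -0.28 to 0.61, adjusted p = 0.679, edgeR). Without female 2 that value was 0.02, and without male 1 it was 0.03.

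Per kilobase of transcript the highest members were Ube2c, with 193 ± 18.2 in females and 226 ± 37.7 CPM per kilobase in males, Cenpa, with 138 ± 10.2 and 161 ± 30.2, and Birc5, with 126 ± 10.3 and 157 ± 36 in females and males. The lowest were Cenpf, with 5.57 ± 0.770 in females and 5.10 ± 0.879 CPM per kilobase in males, Cenpe, with 6.26 ± 1.01 and 5.53 ± 0.949, and Ttk, with means of 13.5 and 13.8. Ndc80, at 13 in females and 15.4 in males, did not differ from Ttk beyond the spread between mice. Ube2c, Cenpa and Birc5 have annotated transcripts of 967, 1466 and 947 bases, and Cenpf and Cenpe of 11130 and 7910. The ranking therefore depends on the transcript length used.

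**Figure D3:**
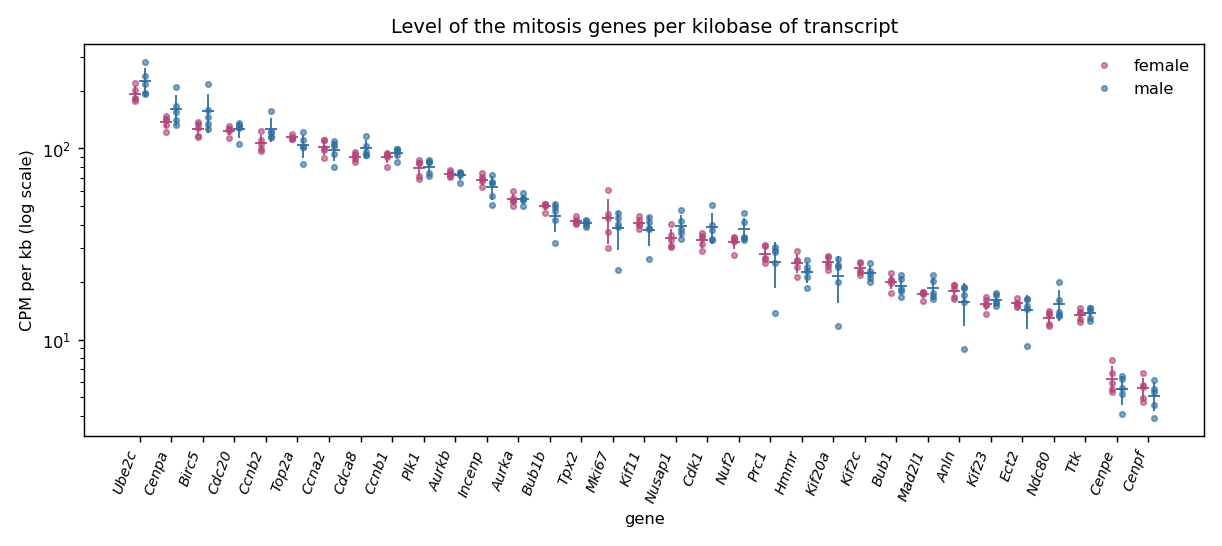
Level of each of the 33 mitosis genes in CPM per kilobase of transcript (log axis), genes in descending order, with females (points are mice) left and males right of each gene and the mean with SD over 5 mice. Ube2c, Cenpa and Birc5 are highest and Cenpe and Cenpf lowest, and the points of the sexes overlap for every gene.

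The library of male 2 was often at an extreme. It was the highest of the 10 mice in 9, namely Cdk1, Ccnb2, Birc5, Cdca8, Mad2l1, Ube2c, Cenpa, Ndc80 and Nuf2. It was the lowest in 13, namely Ccna2, Aurkb, Bub1, Bub1b, Cenpf, Kif11, Kif2c, Hmmr, Kif20a, Prc1, Anln, Ect2 and Top2a. No other library was at an extreme in more than 11 genes. The 9 had a median transcript length of 1626 bases and a median log2 fold change of -0.23, all 9 below 0. The 13 had a median length of 3674 bases and a median log2 fold change of 0.13, all 13 above 0. Since male 2 is part of the fold change, these signs are a description. Without male 2 the medians were -0.12 and 0.04, and over all members the range was -0.19 to 0.19. Without males 1 and 2 the range was -0.13 to 0.07.

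**Figure D4:**
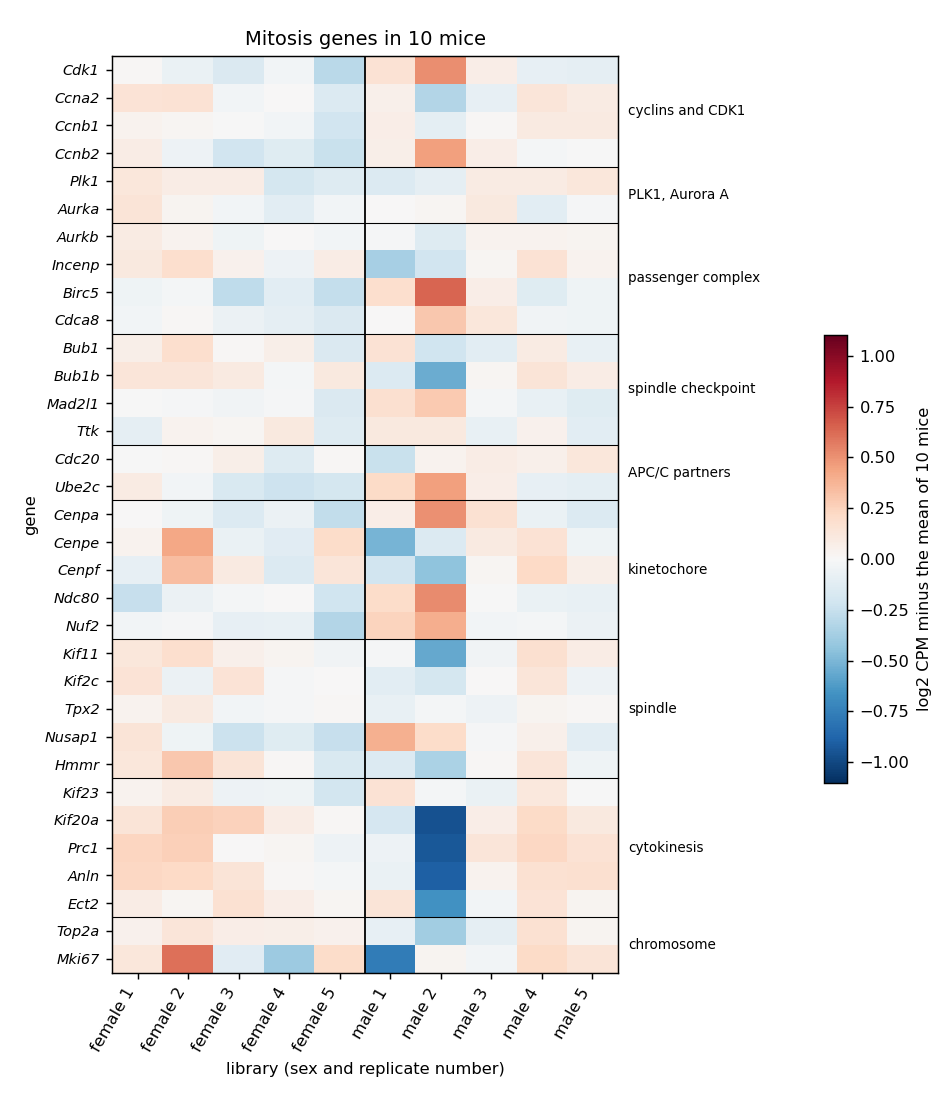
Log2 level of each of the 33 mitosis genes in each mouse relative to the gene's mean over the 10 mice, females left and males right, genes grouped by role. The lowest values are those of Prc1, Kif20a and Anln in male 2, where Birc5 is high, and Mki67 is high in female 2 and low in male 1.

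Transcript length went with this order. Across the 33 genes, the deviation of male 2 from the other males had a Spearman rank correlation of -0.523 with transcript length, and of -0.565 across the 14663 tested genes with a length. Males 4 and 5 had the opposite sign to male 2, at 0.672 and 0.454 across the members. Male 2 is among the males that they were set against, which adds to these 2 values. Set against the other females, female 1 was at -0.497 across the members and -0.158 across all genes. Female 2 was at 0.363 and 0.166, and females 3, 4 and 5 lay between -0.192 and 0.201 across the members. The female over male log2 fold change had a rank correlation of 0.664 with length across the members and of 0.457 across all genes, and without males 1 and 2 these were 0.644 and 0.124. The genes are not independent of each other and all points share the same libraries, so the values are given without a test. Split at the median length of 3026 bases, a division made after the values were seen, 13 of the 16 shorter genes had a log2 fold change below 0 (median -0.11) and 13 of the 16 longer ones had one above 0 (median 0.13). Without male 2 these medians were -0.09 and 0.05. With each library's length slope as a covariate, the members ranged from -0.14 to 0.11. The rank correlation with length was then 0.544 across the members and 0.017 across all genes. The slopes were fitted over the tested genes with a length, so a value near 0 across all genes follows from the fit. RNA quality values were not used here, and the part of RNA quality in this pattern was not tested.

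**Figure D5:**
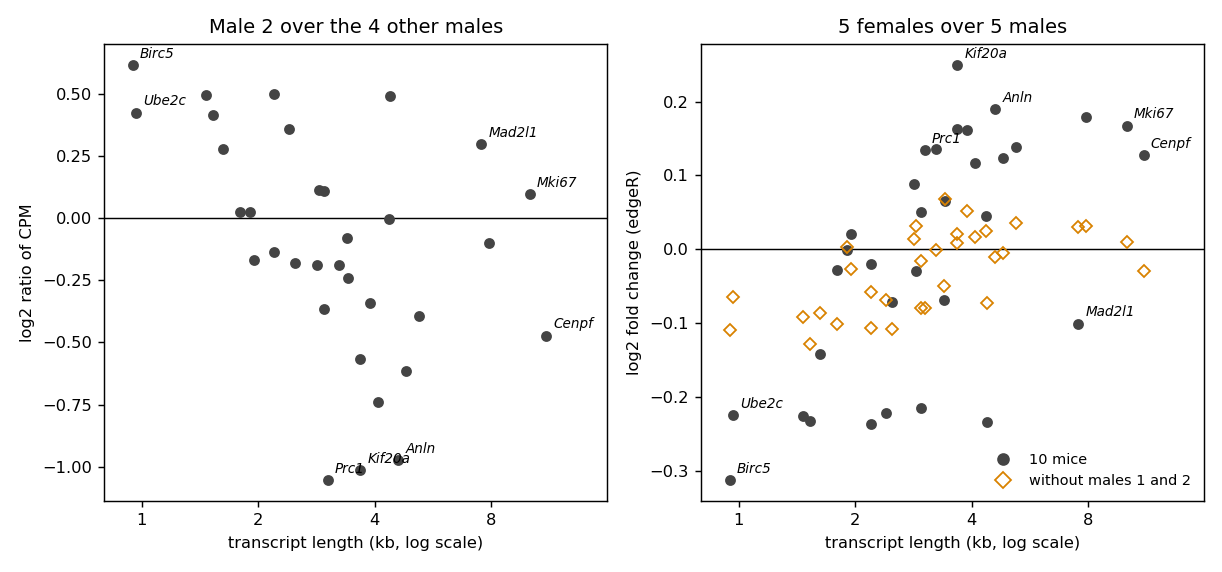
Each point is 1 of the 33 mitosis genes, with transcript length on a log axis, against the log2 ratio of CPM in male 2 over the other 4 males (left) and against the female over male log2 fold change (right), with open diamonds for the fold change without males 1 and 2. Shorter genes tend to lie higher than longer genes in male 2 (rank correlation -0.523), and the fold change runs the other way (0.664).

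Some members overlap other genes. The annotation places exons of another gene on the opposite strand across exons of 8 members, Kif20a and Prc1 among them, by 1271 bases with Cdc23 and by 911 bases with Rccd1. Over the 10 libraries Cdc23 had 17842 counts and Kif20a 19894, and Rccd1 had 1618 against 18707 for Prc1. Whether the counting used strand is not known from the labels, so reads of such pairs may not be fully told apart.

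Genes of the wider pathway were examined the same way. Of 70 further mitosis genes, 0 were called in either direction (edgeR), 32 had a log2 fold change above 0 and 38 below, and the median was -0.03. Their summed level was 5461 ± 291 CPM in females, against 5461 ± 224 CPM in males (SD, n = 5 each). At an unadjusted p under 0.05, 1 of the 70 was higher in females and 6 lower, where the shares of all genes were 3.76% and 5.41%. The 3 with the smallest p were Cenpl, a centromere protein, at 30.1 ± 3.49 CPM in females, against 36.6 ± 2.42 CPM in males, Pttg1, securin, at 13.2 ± 1.34 CPM in females against 18.8 ± 5.84 CPM in males, and Cdc25b, a phosphatase that activates CDK1, at 38.3 ± 3.13 CPM in females against 53.5 ± 15.5 CPM in males. Their log2 fold changes were -0.28, -0.51 and -0.48, each with an adjusted p of 0.506 (edgeR). Pttg1 was at 28.1 CPM in male 2, and its value was -0.32 without male 2 and -0.19 without males 1 and 2. Cdc25b was at 34.1 CPM in male 2, and its value was -0.61 without male 2 and -0.47 without males 1 and 2. For Cenpl these values were -0.26 and -0.22. Dsn1, a kinetochore subunit named after its values were seen, was the 1 gene of the 70 without overlap between the sexes, where 1.93% of all genes had none, at 30.1 ± 0.588 CPM in females, against 26.5 ± 3.36 CPM in males (log2 fold change 0.19, adjusted p = 0.506, edgeR, and 0.11 without male 2).

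The regulators of G2 and M phase transcription, 20 genes of the MuvB, B-MYB, FOXM1, NF-Y, E2F and pocket protein families, also gave 0 calls, with 11 above 0, 9 below and a median of 0.05, which was -0.03 without male 2 and -0.05 without males 1 and 2. Foxm1 was at 63.7, 67.2, 62.3, 57.6 and 57.8 CPM in females, against 54.9, 29.8, 55.7, 67.9 and 67.9 CPM in males. Male 2 was far below the other mice, as it was for Kif20a and Prc1, and the log2 fold change was 0.16 (adjusted p = 0.662, edgeR), or 0.0033 without male 2 and -0.05 without males 1 and 2. Mybl2, which encodes B-MYB, averaged 143 ± 15.5 CPM in females, against 138 ± 19.97 CPM in males, with a log2 fold change of 0.06, or 0.0097 without male 2 and -0.09 without males 1 and 2. Foxm1 and Mybl2 were named for their role, whereas the 3 of smallest p were E2f6, E2f2 and Rbl2, with log2 fold changes of 0.17, -0.37 and 0.24 and adjusted p-values of 0.506, 0.506 and 0.523 (edgeR). Without males 1 and 2 these were 0.10, -0.42 and 0.04, and Rbl2 was 0.11 without male 2 alone.

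Among 16 subunits of the APC/C and its chain-elongating enzyme there were 0 calls, with 6 above 0, 10 below and a median of -0.07. Anapc16, a small subunit, had the smallest p, at 36.9 ± 0.545 CPM in females, against 44.5 ± 9.87 CPM in males (log2 fold change -0.27, adjusted p = 0.506, edgeR), and its values did not overlap, as for 1.93% of all genes. Anapc10, a substrate-binding subunit, and Ube2s, the elongating enzyme, had log2 fold changes of -0.34 and -0.22. Male 2 was the highest mouse for all 3 genes, and without it the values were -0.13 for Anapc16, -0.16 for Anapc10 and -0.08 for Ube2s. Without males 1 and 2 they were -0.15, -0.05 and -0.05.

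The 33 DNA replication genes gave 0 calls, 16 above 0, 17 below and a median of -0.01, with a summed level of 8707 ± 665 CPM in females, against 8649 ± 545 CPM in males (SD, n = 5 each). By mouse the sums were 9528, 9286, 8392, 8353 and 7975 CPM in females, against 7852, 8479, 8635, 8990 and 9287 CPM in males. As with the mitosis genes, females 1 and 2 were the highest females and males 4 and 5 the highest males. Tk1, thymidine kinase, averaged 164 ± 23.2 CPM in females, against 197 ± 34.1 CPM in males, a log2 fold change of -0.26, and Mcm10 and Rfc4, a replication initiator and a clamp loader subunit, had 0.16 and -0.24, all with an adjusted p of 0.506 (edgeR). Without male 2 the values of Tk1, Mcm10 and Rfc4 were -0.16, 0.13 and -0.11, and without males 1 and 2 they were -0.21, 0.07 and -0.08.

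Of 11 genes marking stem cells 0 were called, with a median log2 fold change of 0.08 (0.02 without male 2), and of 9 tested genes of quiescence 0 were called, with a median of -0.10 (-0.16 without male 2). The quiescence genes of smallest p were Btg2 and Btg1, both antiproliferative, and the transcription factor gene Foxo1, with log2 fold changes of -0.44, -0.48 and -0.21 and adjusted p-values of 0.506, 0.506 and 0.514 (edgeR). Without males 1 and 2 these were -0.35, -0.03 and -0.14.

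Total counts per library ran from 20754101 to 24759687. The sex-linked genes Xist, Ddx3y, Uty, Kdm5d and Eif2s3y matched the labelled sex in all 10 mice and were 5 of the 8 genes called. Some markers of cells that lineage depletion should remove varied between libraries and, before adjustment, between the sexes. At an unadjusted p under 0.05 (edgeR), 4 of 4 hemoglobin, 11 of 11 mature neutrophil and 5 of 6 B lineage genes were lower in females. The share of all genes was 5.41%. At the same level, 1 of 10 monocyte and macrophage genes and 1 of 4 T and NK cell genes were lower in females. Their median log2 fold changes were -0.29 and -0.28, and without males 1 and 2 they were 0.11 and 0.26. Of 10 megakaryocyte genes 7 were higher in females, against 3.76% of all genes, with a median log2 fold change of 0.42, or 0.44 without males 1 and 2. None of these genes was called. Of 16 erythroid genes 0 were called, with 5 above 0, 11 below and a median log2 fold change of -0.23 (-0.15 without male 2), and their summed level was 9278 to 14369 CPM in females and 16469 to 53150 CPM in males. Within them, the summed level of the 4 hemoglobin genes was 3511 to 7594 CPM in females and 9313 to 45672 CPM in males, highest in male 1, with 0 of 4 called and a median log2 fold change of -2.07, or -1.31 without males 1 and 2. That of 11 mature neutrophil genes was 282 to 1050 CPM in females and 227 to 9352 CPM in males, again highest in male 1, with 0 of 11 called and a median of -2.45, or -0.95 without males 1 and 2. The sum of 13 mitochondrial genes was 35594 CPM in male 2 and 20908 to 25583 CPM in the other 9 mice. The part of these in the values of the mitosis genes was not tested. Without the hemoglobin counts, the mitosis genes took 0.521% ± 0.0250 of the remaining counts in females, against 0.502% ± 0.0376 in males (SD, n = 5 each).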

How the data were processed

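Lineage-depleted marrow of 5 female and 5 male mice was sequenced in bulk. The authors deposited raw read counts per Ensembl gene, and a second table of normalized values (signal) that equal the deposited counts divided by 1 size factor per library. Alignment and counting tools named in the submitters' processing notes are STAR and featureCounts, with DESeq, and the builds named are mm10 and GRCm38.p6. Versions, annotation release, library kit and strand setting were not found in the labels. Symbols, coordinates (GRCm38) and lengths (longest principal transcript) came from GENCODE vM21, which held 25116 of the 25178 identifiers.

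The counts were tested with edgeR 4.0.16 in R 4.3.3 (filterByExpr, TMM factors, robust quasi-likelihood fit, sex as the only term, Benjamini-Hochberg adjustment over all genes tested), after the script had been tested on simulated data. The threshold for a call was an adjusted p of 0.05. Standard errors are the log2 fold change divided by the square root of F, and 95% intervals use the t distribution with the fit's degrees of freedom. CPM per kilobase divides CPM by the transcript length. Per the labels, each library is a separate mouse. The alternatives were DESeq2 1.42.0, RLE factors, library totals, other filters, a replicate block, a length covariate, and leaving out each mouse or males 1 and 2.

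All 33 members are named. Where genes of another list are named, they are those called or else the 3 of smallest p. Any other gene was chosen for its role or after its values were seen. No single gene is reported here for the stem cell list, the lists of mature blood cell and megakaryocyte markers or the mitochondrial list. Further lists, of primary neutrophil granule, mast cell, basophil and eosinophil, stromal and endothelial, and immediate early genes, are not reported here. The members and lists were chosen with earlier results of these data known. Precision rests on at least 20754101 counts per library, and intervals cover the spread between these mice. Motifs were searched in RefSeq windows (GRCm38.p6) with exact matching on both strands.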

Additional observations from a re-analysis of the deposited data

Results flagged for a closer look

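In 6 of the 74 groups of 5 mice examined (8.11%), 1 mouse lay apart from the others, with a gap to its nearest neighbour as a share of the whole range above Dixon's 95% critical value for 5 samples. Chance gives about 1 in 20. Male 2 was apart at the top for Ccnb2, with a gap of 0.832 of the range, and at the bottom for Ect2, with 0.721. Female 5 was apart at the bottom for Mad2l1, with 0.734, and for Nuf2, with 0.727. Female 4 was the low mouse for Bub1b, with 0.747, and male 1 for Cdc20, with 0.742.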

How the results depend on the processing

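No member was called under any of the alternatives run, and the smallest adjusted p among the members was 0.323 (edgeR, without male 5), against 0.506 with all mice. The number of all genes called was 8, with 5 under the replicate block, 60 under DESeq2 and 6 to 10 when 1 mouse was left out. It was 12 with the length covariate and 12 without males 1 and 2. Same-numbered mice had correlations of deviations from -0.302 to -0.00710, and no female correlated best with the male of her number. Whether same-numbered mice shared a batch was not tested. Under the block 0 members were called, 33 kept their sign, and the median was 0.02. Unadjusted p under 0.05 (edgeR) was reached by 1 member with all mice and without female 2, and by 2 without male 3. It was reached by 8 without male 5 and by 4 without male 4 or without female 1. It was reached by 0 without male 1 or male 2, and by 0 without female 3, female 4 or female 5. With library totals in place of TMM, the median of all genes was 0.06, that of the 70 other mitosis genes was 0.052 (-0.025 with TMM), and Plk1 was 0.049, Aurka 0.073, Ttk 0.049, Cdc20 0.046 and Kif23 0.0040. Aurka was 0.0071 with no filter and 0.0022 with DESeq2.

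Signs turned for 10 members with the length covariate: Ccna2 -0.040, Aurka 0.022, Aurkb -0.018, Mad2l1 0.0094, Ttk 0.0093, Cenpf -0.026, Kif11 -0.024, Prc1 -0.084, Anln -0.022 and Ect2 -0.043. Without males 1 and 2 they turned for Ccna2 -0.016, Aurka 0.0036, Aurkb -0.026, Incenp -0.0014, Mad2l1 0.030, Ttk 0.032, Cenpf -0.029, Kif11 -0.0044, Prc1 -0.079 and Anln -0.0100. Leaving out 1 mouse gave Ccna2 -0.014 to 0.093, Plk1 -0.063 to 0.025, Aurka -0.037 to 0.027, Aurkb -0.011 to 0.034, Ttk -0.060 to 0.0025, Cdc20 -0.091 to 0.0049, Prc1 -0.023 to 0.208 and Ect2 -0.0016 to 0.171. The cause was not tested. Every member had at least 536 counts in each library, and with 5 mice per sex the intervals of Birc5, Kif20a and Mki67 reached past 1.5-fold.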
